A study of Homo sapiens with 8 samples.

Results

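The genes described here encode 8 transcription factors that set the identity of the hepatocyte, the main cell type of the liver. They are HNF4A, FOXA1, FOXA2, FOXA3, CEBPA, ONECUT1, PROX1 and NR5A2, chosen by name, and all 8 were matched by Ensembl identifier among the 60230 genes of the table. RNA was sequenced from HepG2, a long-established human liver cancer line, in a derivative that overexpresses CYP3A4, the main drug-oxidizing enzyme of the human liver. All groups, the controls included, were made from these transgenic cells, so no group without the transgene enters the comparisons. The study asked whether chemicals related to plastics harm such cells.

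The 4 groups held 2 samples each. Controls received 0.2% DMSO, and the other groups received compound 4 (labelled metylcresol), compound 5 (tetrabut) or compound 6 (cyclohexil), antioxidants of plastic production. Cells were seeded 24 h before treatment, and by the methods of the study they were exposed for 24 h. Each compound was given at its own IC50, so the molar doses differed between compounds. The labels number the samples of a group as day 1 and day 2 but do not state separate cultures, and p-values therefore measure the spread between these samples, which may be technical. The labels name replicate 1 of compounds 4 and 5 as merged, each from a pair of S numbers that they do not explain.

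The libraries held between 9472261 and 13308975 counts, at which 3 counts correspond to between 0.225 and 0.317 CPM (counts scaled to a common library size), counting error only. The labelled cell type was checked against marker genes. Of 6 hepatocyte markers, 5 were above 1 CPM in every library, among them albumin (12560 to 18490 CPM), while the bile acid carrier SLC10A1 was at 0. The biliary keratin KRT19 was also abundant (74.0 to 168.5 CPM), and KRT7 was at most 0.0855 CPM. Of 4 stellate and fibroblast markers 1, PDGFRB, was above 1 CPM in every library, and their sum was 1.64 to 2.66 CPM in DMSO and 2.67 to 8.64 CPM with the compounds, while DCN and COL1A2 were at 0. Of 4 macrophage and leukocyte markers 1, CD68, was above 1 CPM in every library, and their sum was 27.4 to 38.6 CPM in DMSO and 36.3 to 58.9 CPM with the compounds, while PTPRC and CD163 were at 0. None of 4 endothelial markers was above 1 CPM in every library, their sum was 0.904 to 1.28 CPM in DMSO and 0.864 to 2.06 CPM with the compounds, and KDR was at 0. The part of these markers in the results was not tested. CYP3A4 measured between 170.5 and 421 CPM and was highest with compound 5 (371 and 421 CPM).

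As background, these factors bind each other's genes and form an autoregulatory circuit. FOXA proteins are pioneer factors that open chromatin ahead of other factors. HNF4A is an orphan nuclear receptor required for most liver-specific transcription, and CEBPA is a basic leucine zipper protein that drives metabolic genes and restrains proliferation. ONECUT1 acts early in liver and bile duct development, PROX1 is a homeobox corepressor of HNF4A and of NR5A2, and NR5A2 is the nuclear receptor that promotes bile acid synthesis.

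The genes lie on 5 autosomes (GENCODE 29 coordinates on GRCh38). HNF4A spans chromosome 20 from 44355700 to 44434596 on the plus strand, and FOXA2 lies on the minus strand of the same chromosome from 22581005 to 22585455. FOXA1 is on chromosome 14 (37589984 to 37596059, minus), FOXA3 on chromosome 19 (45863989 to 45873797, plus) and ONECUT1 on chromosome 15 (52756989 to 52791078, minus). PROX1 (213983181 to 214041502) and NR5A2 (200027602 to 200177424) are both on the plus strand of chromosome 1. CEBPA has a single exon on the minus strand of chromosome 19, from 33299934 to 33302564, and the noncoding gene CEBPA-DT starts 293 bases away on the opposite strand.

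RefSeq windows around the annotated starts (250 bases before and 50 after, GRCh38.p14) were matched for 6 of the 8 genes, with 2 starts each for HNF4A and NR5A2. The RefSeq start of FOXA1 lies inside its GENCODE 29 span. The 250 bases before the start are shown for CEBPA, the member called with compound 5, and for HNF4A and FOXA1, whose windows hold letters read by other members. Capitals mark matches, on either strand, to the ONECUT1 letters ATTGAT, the C/EBP letters GCAAT, the forkhead letters TGTTTGC and the HNF4 letters CAAAGT.
CEBPA, chr19:33302535-33302784, minus strand: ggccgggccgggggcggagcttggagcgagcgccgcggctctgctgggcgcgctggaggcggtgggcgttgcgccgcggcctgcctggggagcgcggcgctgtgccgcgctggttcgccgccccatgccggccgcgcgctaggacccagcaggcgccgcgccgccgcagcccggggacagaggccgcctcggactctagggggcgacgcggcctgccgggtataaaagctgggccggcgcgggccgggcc
HNF4A, upstream start, chr20:44355449-44355698, plus strand: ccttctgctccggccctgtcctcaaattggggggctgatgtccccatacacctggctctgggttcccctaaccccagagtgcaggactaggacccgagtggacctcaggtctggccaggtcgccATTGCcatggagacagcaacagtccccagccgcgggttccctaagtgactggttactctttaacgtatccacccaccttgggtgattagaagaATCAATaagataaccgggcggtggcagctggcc
HNF4A, downstream start, chr20:44400989-44401238, plus strand: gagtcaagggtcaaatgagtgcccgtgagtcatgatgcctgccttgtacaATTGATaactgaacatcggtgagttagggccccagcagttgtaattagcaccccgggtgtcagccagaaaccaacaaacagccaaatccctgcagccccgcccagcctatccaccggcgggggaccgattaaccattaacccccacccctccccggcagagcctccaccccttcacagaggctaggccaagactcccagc
FOXA1, chr14:37595250-37595499, minus strand: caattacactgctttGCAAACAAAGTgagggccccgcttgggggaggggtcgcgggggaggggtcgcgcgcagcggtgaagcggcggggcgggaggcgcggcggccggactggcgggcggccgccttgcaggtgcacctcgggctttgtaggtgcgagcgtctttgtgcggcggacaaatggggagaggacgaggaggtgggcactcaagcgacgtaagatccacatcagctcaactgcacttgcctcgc
In the HNF4A windows ATTGAT stood at -33 from the upstream start and at -200 from the downstream start, and 6.26% of 34796 promoter windows hold these letters. GCAAT, held by 24.5% of windows, stood at -126 of the upstream start. In FOXA1 the reverse complement of TGTTTGC at -235 and CAAAGT at -230 overlap, with shares of 3.88% and 11.9%. The second NR5A2 window held TGTTTAC (3.42% of windows) and CAAAGT. The CEBPA window is 80.7% G and C and held none of the 10 strings searched, which also included the NR5A2 letters AAGGTCA (in 3.92% of windows), a second form of the ONECUT1 site, ATCGAT (0.762%), the cyclic AMP element TGACGTC (3.43%), and the composite C/EBP and ATF forms TGATGCA (2.63%) and TGATGAA (3.19%). Matches of letters describe the sequence and are not binding sites.

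Levels were compared between genes as CPM per kilobase of merged exons. In DMSO, CEBPA stood highest at 58.5 ± 0.4 (SD, n = 2), followed by HNF4A at 49.7 ± 0.321. FOXA3 came next at 22.3 ± 0.407, then FOXA2 at 17.5 ± 1.23, FOXA1 at 15.6 ± 0.168 and PROX1 at 9.21 ± 0.808. ONECUT1 (1.19 ± 0.0135) and NR5A2 (0.201 ± 0.00793) were far below these. No neighbours in this order overlapped between their DMSO libraries. With compound 5 the means of CEBPA (42.8 ± 5.8) and HNF4A (44.4 ± 0.855) were in the reverse order, and the libraries of both genes overlapped with each of the 3 compounds. The merged length counts exons of all annotated transcripts, so a gene that uses few of them is understated.

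Of all 13404 genes tested, compound 4 called 11.9%, compound 5 called 28.1% and compound 6 called 4.4%, at an edgeR adjusted p under 0.05 in either direction. All 8 factor genes passed the filter on low counts. With compound 5, 1 of them was called, CEBPA, which was lower, as were 14.2% of all genes. With compounds 4 and 6 the count was 0, at which the unadjusted p was under 0.05 for ONECUT1 (compound 4) and for FOXA1 and ONECUT1 (compound 6), and DESeq2 also called 0. Their median log2 fold changes were 0.0069, -0.10 and -0.14 for compounds 4, 5 and 6, against 9.88e-05, -0.032 and 0.0028 over all tested genes. The treated libraries lay outside the DMSO range in 4, 7 and 5 of the 8 genes, where 54.6%, 70.1% and 52.9% of all genes did so. In bulk RNA, fewer cells of a kind and less RNA per cell cannot be told apart.

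**Figure D1:**
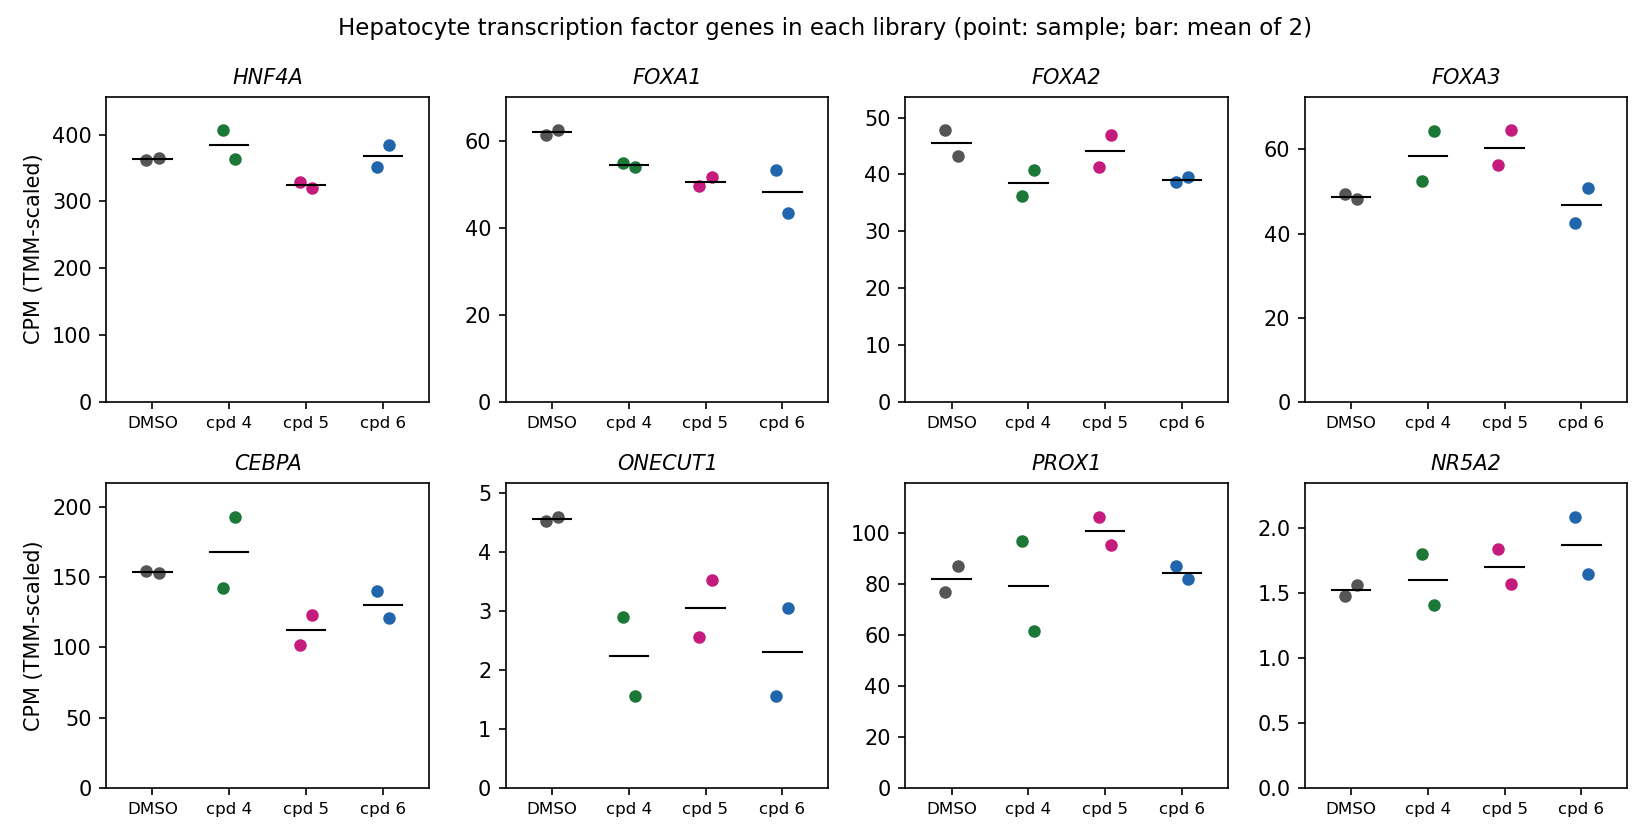
Each panel shows 1 gene, with CPM (TMM-scaled, from 0) on the vertical axis, a point for each of the 2 libraries of a group and a bar at their mean. CEBPA is lower in both compound 5 libraries (102 and 123 CPM) than in DMSO (155 and 153 CPM), and ONECUT1 is lower in all 6 treated libraries.

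CEBPA measured 155 and 153 CPM (DMSO), 142 and 193 CPM (compound 4), 102 and 123 CPM (compound 5) and 139.9 and 121 CPM (compound 6). Both libraries of compound 5 and both of compound 6 lay below DMSO, whereas those of compound 4 lay on either side of it. With compound 5 the log2 fold change was -0.45 (SE 0.15, 95% interval -0.79 to -0.11, edgeR adjusted p = 0.0489). The mean fell from 154.0 ± 1.05 to 112.6 ± 15.3 CPM (SD, n = 2), a ratio of 0.731. The log2 fold change was 0.12 with compound 4 (interval -0.21 to 0.46, edgeR adjusted p = 0.648) and -0.24 with compound 6 (interval -0.58 to 0.098, edgeR adjusted p = 0.422, and -0.13 without compound 6 replicate 2). The compound 5 call stood at the edge of the cutoff. It was kept in 8 of 11 alternative settings that used all libraries of the groups compared, with log2 fold changes from -0.56 to -0.38 over the 11. It was not made with the replicate number as a block (adjusted p = 0.0505) or with RLE scaling (0.0568), was made by DESeq2 (0.0371), and was lost without DMSO replicate 1 (0.171) or 2 (0.165), compound 5 replicate 1 (log2 fold change -0.29, adjusted p = 0.316) or 2 (0.0621), or compound 6 replicate 1 (0.0631) or 2 (0.0629).

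CEBPA also differed between compounds, with a log2 difference of -0.57 for compound 5 against compound 4 (SE 0.15, interval -0.91 to -0.24, edgeR adjusted p = 0.0349), in a comparison that called 13.9% of all genes (7.04% of all genes as lower). Its libraries were the furthest apart within compound 4, where replicate 2 exceeded replicate 1 by 0.44 on the log2 scale. Over all tested genes, the median log2 difference of replicate 2 from replicate 1 of compound 4 was 0.17 in the shortest quintile of genes and -0.22 in the longest, against -0.11 and 0.11 in DMSO. After a correction of each library for exon length and GC content, the CEBPA difference was -0.33 (edgeR adjusted p = 0.076), and in a fit of those groups alone its adjusted p was 0.0782. The call was also lost without DMSO replicate 1 (adjusted p = 0.0588) or 2 (0.0647), compound 4 replicate 2 (log2 difference -0.33, adjusted p = 0.185), or compound 5 replicate 1 (0.226) or 2 (0.0858). Compound 5 against compound 6 gave -0.21 (interval -0.55 to 0.13, edgeR adjusted p = 0.408) and compound 4 against compound 6 gave 0.36 (interval 0.026 to 0.70, edgeR adjusted p = 0.488).

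The noncoding gene CEBPA-DT, divergent from CEBPA, was at low counts. It measured 4.63 and 3.78 CPM (DMSO), 4.87 and 4.76 CPM (compound 4), 1.93 and 2.20 CPM (compound 5) and 6.57 and 6.34 CPM (compound 6). The compound 5 libraries lay below all others. With compound 5 the log2 fold change was -1.01 (SE 0.25, edgeR adjusted p = 0.0137), while it was 0.20 with compound 4 (adjusted p = 0.618) and 0.62 with compound 6 (adjusted p = 0.148). Compound 5 was also lower than compound 4 (log2 difference -1.22, edgeR adjusted p = 0.014) and than compound 6 (-1.64, edgeR adjusted p = 0.0045). DESeq2 did not call the change with compound 5 (adjusted p = 0.0888), nor did edgeR without DMSO replicate 1 (0.0962) or compound 5 replicate 1 (0.0916) or 2 (0.0513). The exons of CEBPA are overlapped on the opposite strand by AC008738.3 and AC008738.5. The library kit keeps strand, but whether the counting used it was not given in the sources used here, so reads of such partners may not be told apart.

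The genes whose profile over the 8 samples lay closest to that of CEBPA, by the root mean square difference of centred log2 CPM, were NCBP2AS2 (0.056), PRDX4 (0.071) and BCL7C (0.076), out of 9314 genes averaging 10 CPM or more. The deviation of CEBPA from its own mean was 0.26 on the same scale.

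HNF4A measured 362 and 365 CPM (DMSO), 406 and 364 CPM (compound 4), 329 and 320.3 CPM (compound 5) and 352 and 385 CPM (compound 6). Both compound 5 libraries lay below every other library, and the other treated libraries fell on both sides of DMSO. The log2 fold change was -0.16 with compound 5 (interval -0.38 to 0.061, edgeR adjusted p = 0.253) and did not pass the test. It ranged from -0.27 to -0.13 over the alternative settings, also without a call. It was 0.084 with compound 4 (interval -0.14 to 0.31, adjusted p = 0.641) and 0.020 with compound 6 (interval -0.20 to 0.24, adjusted p = 0.94), the last of which turned negative (-0.0068) when libraries were scaled by their size alone. The 3 intervals lay between -0.38 and 0.31 on the log2 scale. Over the fits without 1 library, the HNF4A value with compound 4 ranged from 0.0019 to 0.18. HNF4A-AS1, a noncoding gene inside HNF4A on the opposite strand whose exons do not overlap it, was at only 5 to 22 counts per library. It measured 1.18 and 1.81 CPM (DMSO), 1.20 and 0.546 CPM (compound 4), 0.458 and 0.707 CPM (compound 5) and 0.521 and 0.741 CPM (compound 6). There was no call, with log2 fold changes of -0.80, -1.34 and -1.22 for compounds 4, 5 and 6 (edgeR adjusted p = 0.355, 0.0881 and 0.243).

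The FOXA genes differed from DMSO by less than 0.4 on the log2 scale, and none was called. FOXA1 measured 61.4 and 62.4 CPM (DMSO), 54.98 and 53.98 CPM (compound 4), 49.7 and 51.6 CPM (compound 5) and 53.3 and 43.3 CPM (compound 6). All 6 treated libraries lay below both DMSO libraries. Exons of TTC6 overlap FOXA1 on the opposite strand, so the caveat on strand holds here too. The edgeR log2 fold changes were -0.18 (compound 4, interval -0.44 to 0.073, edgeR adjusted p = 0.349), -0.29 (compound 5, interval -0.55 to -0.031, adjusted p = 0.087) and -0.36 (compound 6, interval -0.62 to -0.10, adjusted p = 0.112). FOXA1 passed the cutoff with compound 5 under upper-quartile scaling (adjusted p = 0.0359), library size alone (0.0289) and a fit of those groups alone (0.0383), and with compound 6 without its replicate 1 (log2 fold change -0.49, adjusted p = 0.0452). Without compound 6 replicate 2 the value with compound 6 was -0.21 (adjusted p = 0.631). The upper-quartile and library-size scalings also shifted the median of all genes with compound 5 to -0.12 and -0.14.

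FOXA2 measured 47.75 and 43.2 CPM (DMSO), 36.2 and 40.8 CPM (compound 4), 41.25 and 46.9 CPM (compound 5) and 38.7 and 39.5 CPM (compound 6). The libraries of compounds 4 and 6 lay below DMSO and those of compound 5 overlapped it. FOXA2 had log2 fold changes of -0.24 (interval -0.51 to 0.026, edgeR adjusted p = 0.233), -0.043 (interval -0.31 to 0.22, adjusted p = 0.821) and -0.22 (interval -0.48 to 0.050, adjusted p = 0.355) for compounds 4, 5 and 6. Without compound 4 replicate 1 the value with compound 4 was -0.16, and without DMSO replicate 1 that with compound 6 was -0.14. After the correction for length and GC content FOXA2 passed the cutoff with compound 4 (-0.34, edgeR adjusted p = 0.0386). In GENCODE 29 its exons overlap those of AL121722.1 on the same strand, and 4.08% of its 31-base words occur in other genes.

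FOXA3 measured 49.4 and 48.2 CPM (DMSO), 52.6 and 64.4 CPM (compound 4), 56.4 and 64.5 CPM (compound 5) and 42.5 and 50.8 CPM (compound 6). It was the FOXA gene with higher values, in all libraries of compounds 4 and 5, and it overlapped DMSO with compound 6. FOXA3 had log2 fold changes of 0.26 (interval -0.037 to 0.56, edgeR adjusted p = 0.248), 0.31 (interval 0.010 to 0.61, adjusted p = 0.11) and -0.061 (interval -0.37 to 0.24, adjusted p = 0.858). With compound 4 the value was 0.40 without compound 4 replicate 1 and 0.12 without replicate 2. FOXA3 passed the cutoff with compound 5 in a fit of those groups alone (adjusted p = 0.02) and after the correction for length and GC content (0.44, adjusted p = 0.0114).

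ONECUT1 was at 46 and 56 counts (DMSO), 34 and 20 counts (compound 4), 28 and 45 counts (compound 5) and 15 and 37 counts (compound 6). As CPM these were 4.53 and 4.60, 2.91 and 1.56, 2.57 and 3.53, and 1.56 and 3.05. All 6 treated libraries lay below DMSO, but the treated replicates differed by 0.44 to 0.89 on the log2 scale in size. ONECUT1 had log2 fold changes of -1.04 (SE 0.38, interval -1.88 to -0.20, edgeR adjusted p = 0.105), -0.57 (interval -1.38 to 0.24, adjusted p = 0.264) and -0.95 (interval -1.80 to -0.11, adjusted p = 0.19). Without the filter on low counts, ONECUT1 was called with compound 4 (adjusted p = 0.0127) and compound 6 (0.043). The values turned on single libraries. With compound 4 the log2 fold change was -1.54 without compound 4 replicate 1 and -0.64 without replicate 2, with compound 5 it was -0.34 without compound 5 replicate 1 and -0.83 without replicate 2, and with compound 6 it was -0.56 without compound 6 replicate 1 and -1.53 without replicate 2.

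PROX1 measured 77.1 and 87.3 CPM (DMSO), 97.05 and 61.5 CPM (compound 4), 106.5 and 95.5 CPM (compound 5) and 87.1 and 81.85 CPM (compound 6). The compound 5 libraries lay above DMSO, and the compound 4 libraries lay on either side of it, 0.66 apart on the log2 scale. PROX1 had log2 fold changes of -0.055 (interval -0.45 to 0.34, edgeR adjusted p = 0.881), 0.30 (interval -0.098 to 0.69, adjusted p = 0.235) and 0.038 (interval -0.36 to 0.44, adjusted p = 0.938). With compound 5, PROX1 passed the cutoff in a fit of those groups alone (adjusted p = 0.0231) and without replicate 1 (0.0498) or 2 (0.0352) of compound 4. The antisense gene PROX1-AS1, whose exons overlap it, was at 0.550 to 2.09 CPM with no call.

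NR5A2 was at 15 to 21 counts per library. It measured 1.48 and 1.56 CPM (DMSO), 1.80 and 1.40 CPM (compound 4), 1.83 and 1.57 CPM (compound 5) and 2.09 and 1.65 CPM (compound 6). The libraries of compounds 5 and 6 lay just above DMSO and those of compound 4 on either side of it. Fitted log2 fold changes were between 0.068 and 0.28, with intervals from -0.76 to 1.11 over the 3 compounds. Without 1 compound 5 library the value with compound 5 was 0.0725 or 0.267, and without 1 compound 6 library that with compound 6 was 0.141 or 0.461. Its relative NR5A1, a receptor best known from adrenal and gonad, stood at 70.7 to 87.1 CPM in these cells and was called with no compound.

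**Figure D2:**
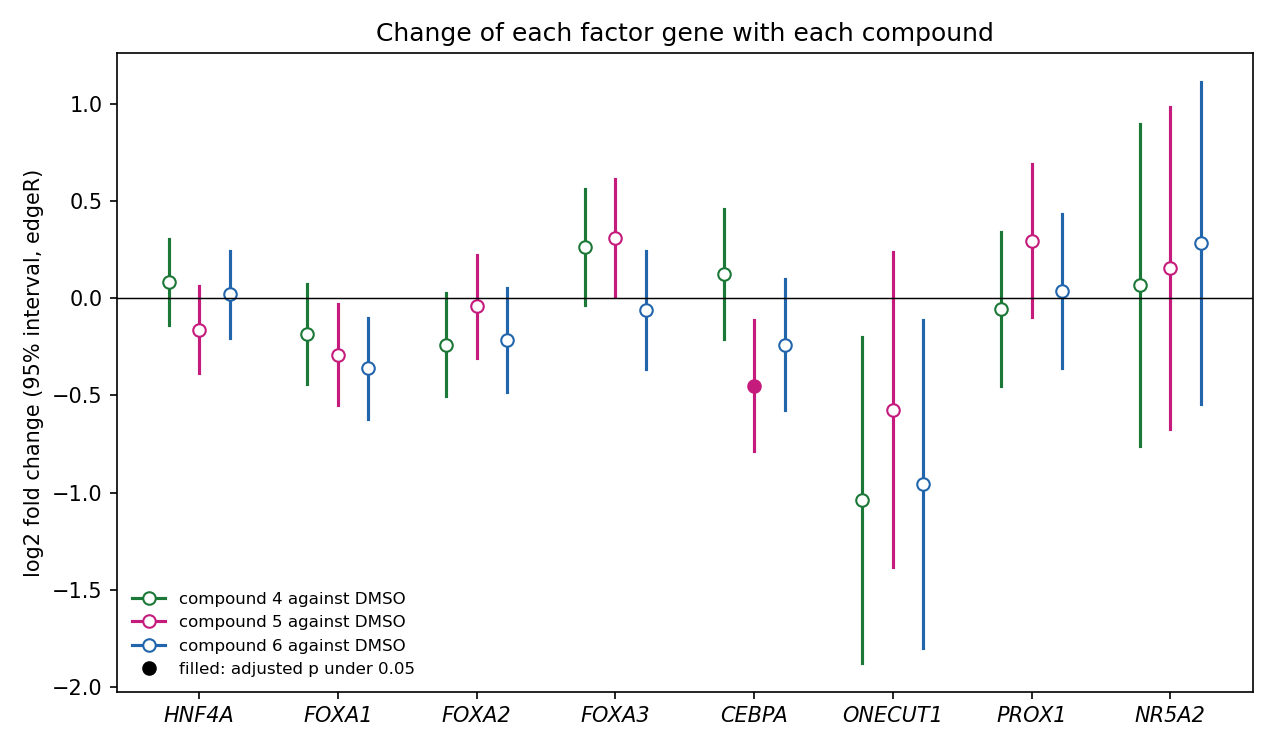
The vertical axis gives the edgeR log2 fold change against DMSO with its 95% interval for each gene (horizontal axis) and compound (colour), and a filled point marks an adjusted p under 0.05. The only filled point is CEBPA with compound 5 (-0.45), and ONECUT1 has the lowest values (-1.04, -0.57 and -0.95).

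The compounds are related bisphenols. Compounds 4 and 6 share a methyl group on each ring and differ in the other ring substituent, tert-butyl in 4 and cyclohexyl in 6, while 5 carries tert-butyl at both of these ring positions and a methyl group on the bridge. As doses differed in molar terms, differences are between treatments at IC50. Over 3 compound pairs and 8 genes, the only call was CEBPA in compound 5 against compound 4, given above. Compounds 4 and 6 called 0 of the 8 genes, where 0.0448% of all genes were called. DESeq2 also called 0 in that pair, and CEBPA and FOXA3 had an unadjusted p under 0.05 in edgeR, and FOXA3 differed by 0.32 (interval 0.023 to 0.62, edgeR adjusted p = 0.488). Compound 5 against compound 6 called 0 of 8 by edgeR and by DESeq2, against 9.91% of all genes. At an unadjusted p under 0.05 there was 1 gene, FOXA3, which differed by 0.37 (interval 0.070 to 0.67, edgeR adjusted p = 0.109). After the length and GC correction FOXA3 was called there. HNF4A in compound 5 against compound 4 gave -0.25 (interval -0.47 to -0.023, edgeR adjusted p = 0.123). These intervals do not show that the compounds acted alike.

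Genes of the same families as the 8 factors, or of the same name series, were next counted, 16 genes of which 13 were tested. CEBPE, ONECUT3 and PROX2 were at or near 0. With compound 4, 2 relatives rose and 1 fell. With compound 5, 6 rose and 0 fell in edgeR's test, with 1 lower at an unadjusted p under 0.05. With compound 6, 2 rose and 1 fell. The median log2 fold changes were 0.23, 0.57 and 0.17. Over all tested genes, 6.5%, 13.9% and 2.8% were called higher with the 3 compounds, and 5.42%, 14.2% and 1.6% lower.

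Of the 6 that rose with compound 5, 3 were named as relatives of CEBPA: CEBPB, CEBPG and DDIT3. DDIT3, the C/EBP partner induced by endoplasmic reticulum and amino acid stress, measured 10.3 and 6.25 CPM (DMSO), 19.9 and 20.4 CPM (compound 4), 56.7 and 56.9 CPM (compound 5) and 13.9 and 24.6 CPM (compound 6). All 6 treated libraries lay above DMSO, with log2 fold changes of 1.30 (SE 0.27, edgeR adjusted p = 0.0118), 2.79 (SE 0.26, adjusted p = 1.09e-04) and 1.24 (SE 0.27, adjusted p = 0.0318). CEBPG, which pairs with ATF4, rose with each compound, by log2 fold changes of 0.44 (edgeR adjusted p = 0.0269), 0.89 (adjusted p = 4.07e-04) and 0.50 (adjusted p = 0.0321). CEBPB, the C/EBP of the acute phase response, measured 72.4 and 61.4 CPM (DMSO) and 112 and 218 CPM (compound 5, log2 fold change 1.31, SE 0.28, edgeR adjusted p = 0.00702). CEBPD was not called, at 11.1 to 23.6 CPM. With compound 5, CEBPA was thus called lower while CEBPB, CEBPG and DDIT3 were called higher. DDIT3 with compound 5 also exceeded compound 4 (log2 difference 1.49, SE 0.24, edgeR adjusted p = 0.00676) and compound 6 (1.55, SE 0.24, adjusted p = 0.00509). The call of CEBPB was lost without compound 5 replicate 2 (log2 fold change 0.74, adjusted p = 0.06) or DMSO replicate 2 (0.0572), and that of DDIT3 with compound 4 without DMSO replicate 2 (0.128). With compound 6, the DDIT3 call was lost with the replicate block (adjusted p = 0.0507), and without either DMSO library, either compound 5 library or compound 6 replicate 2 (0.0514 to 0.338), the last with a log2 fold change of 0.765.

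**Figure D3:**
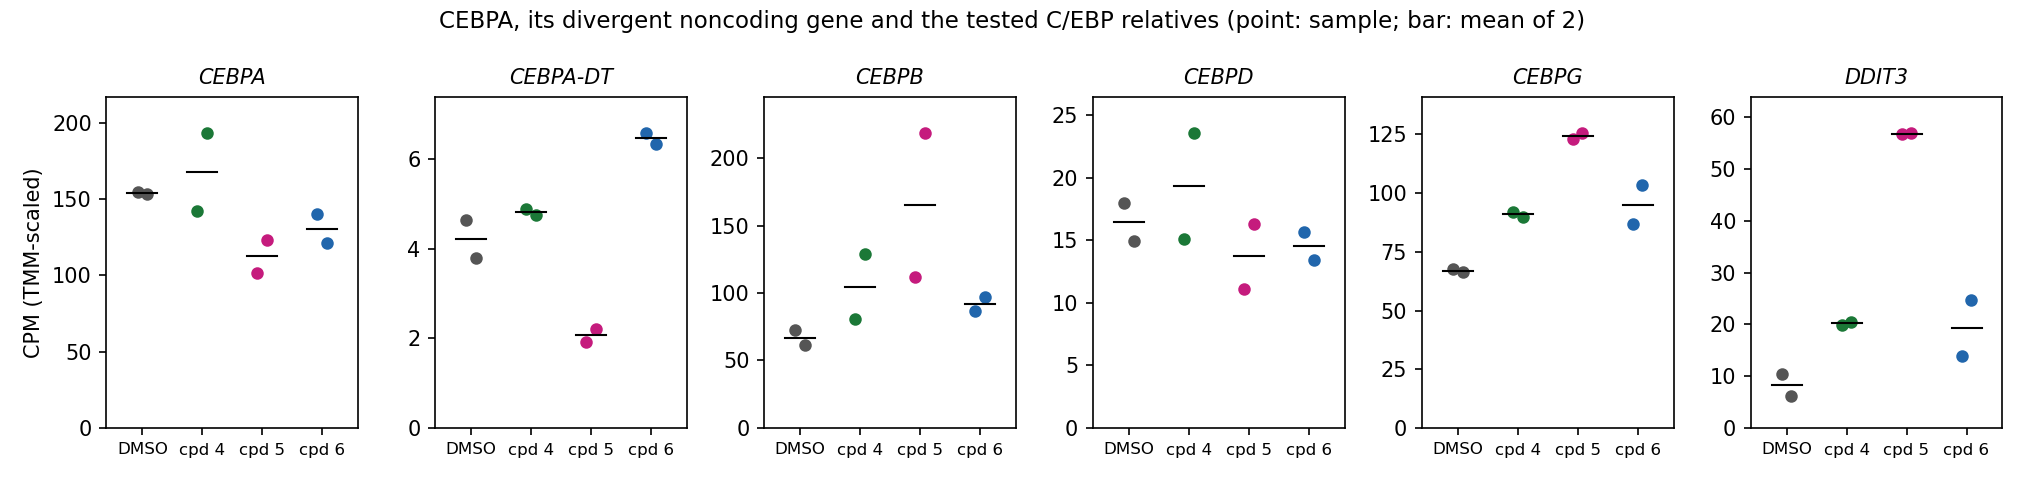
Panels show CEBPA, CEBPA-DT, CEBPB, CEBPD, CEBPG and DDIT3, each with CPM from 0 on its own vertical axis, points for libraries and bars for means of 2. In compound 5 CEBPA (102 and 123 CPM) and CEBPA-DT (1.93 and 2.20 CPM) lie below DMSO, while CEBPB, CEBPG and DDIT3 lie above it.

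Other relatives rose with compound 5, named here after their values were seen. HNF4G, the close relative of HNF4A, went from 14.9 and 16.4 CPM (DMSO) to 24.1 and 30.5 CPM (log2 fold change 0.80, edgeR adjusted p = 0.00332). ONECUT2, the relative of ONECUT1, went from 35.3 and 47.7 CPM to 83.6 and 79.4 CPM (0.97, adjusted p = 0.00461, and 0.0533 without DMSO replicate 1). The forkhead gene FOXP1 was also called (0.57, adjusted p = 0.0152), but not without DMSO replicate 2 (0.103) or compound 5 replicate 1 (0.0985), nor under the GC and length correction (0.0599). FOXM1, the forkhead factor of dividing cells, fell with compound 4 from 91.2 and 94.3 CPM to 49.5 and 39.2 CPM (-1.07, edgeR adjusted p = 0.00215). With compound 6 FOXM1 was at 63.6 and 46.2 CPM (-0.76, adjusted p = 0.0253), a call lost without either DMSO library, compound 5 replicate 1 or compound 6 replicate 2 (0.0537 to 0.278). The CEBPG calls with compounds 4 and 6 were each lost in 5 of the 8 fits that left out a library, with adjusted p up to 0.305: without either DMSO or either compound 5 library, and without compound 4 replicate 1 for compound 4 or compound 6 replicate 2 for compound 6.

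Partner regulators, meaning nuclear receptors, coactivators and liver-enriched factors that act with the 8 genes, counted 26 genes of which 25 were tested. NR1I3, the constitutive androstane receptor, was at most 0.393 CPM. With compound 4, 2 rose and 2 fell. With compound 5, 4 rose and 2 fell. With compound 6, 1 rose and 0 fell, where 4 were lower at an unadjusted p under 0.05 in edgeR. Counting both directions, these were 16%, 24% and 4% of the tested partners, against 11.9%, 28.1% and 4.4% of all tested genes. NR0B2, the small heterodimer partner that represses HNF4A and NR5A2 targets, rose with each compound. It measured 76.5 and 70.4 CPM (DMSO), 148 and 166 CPM (compound 4), 171 and 194 CPM (compound 5) and 108 and 134 CPM (compound 6). The log2 fold changes were 1.09 (SE 0.13, edgeR adjusted p = 0.00101), 1.31 (SE 0.13, adjusted p = 1.55e-04) and 0.73 (SE 0.13, adjusted p = 0.0159), the last lost without either DMSO library or compound 6 replicate 2 (0.0848 to 0.175).

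NR1H4, the bile acid receptor known to induce NR0B2, fell with compound 4 from 32.6 and 40.8 CPM to 18.1 and 21.0 CPM (-0.91, edgeR adjusted p = 0.00508, and 0.0736 without DMSO replicate 2). It was at 25.1 and 30.2 CPM (compound 5) and 26.5 and 23.5 CPM (compound 6), without a call. KLF15, a factor of amino acid catabolism, rose with compound 4 (0.84, adjusted p = 0.0223, lost without DMSO replicate 2 or compound 4 replicate 1 at 0.214 and 0.0811) and compound 5 (1.15, adjusted p = 0.00241). HHEX, a homeobox factor of early liver, fell with compound 5 (-0.58, adjusted p = 0.0248) and was lower without a call with compound 6 (-0.63, adjusted p = 0.0629). DBP, a clock-controlled factor, also fell with compound 5 (-1.53, adjusted p = 0.0205). Both calls were lost without DMSO replicate 1 or either compound 5 library (0.0722 to 0.18), HHEX also under the GC and length correction with the replicate block (0.0529), and DESeq2 did not call DBP (0.0755). The HHEX call with compound 4 (-0.57, adjusted p = 0.0481) was lost with the replicate block (0.0631), by DESeq2 (0.0559), with only the groups compared (0.0818) and without any library but compound 4 replicate 2 (0.0581 to 0.259), with a log2 fold change of -0.37 without compound 4 replicate 1. PPARGC1A, a coactivator of HNF4A in gluconeogenesis, was at 25.3 and 29.2 CPM (DMSO) and 52.7 and 48.8 CPM (compound 5, 0.90, adjusted p = 0.00183), and was named after its values were seen, as was ESRRA, the other partner called higher, a call lost without any DMSO or compound 5 library (0.0604 to 0.133).

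Hepatocyte target genes, mostly of secreted proteins and enzymes, that these factors are known to control, counted 30 genes of which 24 were tested. The others, SLC10A1 and GYS2 among them, were too low to test. With compound 4, 2 rose and 6 fell. With compound 5, 2 rose and 9 fell, and with compound 6, 1 rose and 2 fell. Counting both directions, these were 33.3%, 45.8% and 12.5% of the tested targets, against 11.9%, 28.1% and 4.4% of all tested genes. Calls of lower genes alone, 6, 9 and 2 of the 24 targets, stand against 5.42%, 14.2% and 1.6% of all tested genes. The median log2 fold changes of the targets were -0.21, -0.22 and -0.067. The counts changed with single libraries. The calls over all genes moved in the same direction in each of the fits given here, so the changes are not particular to the targets. For compound 4 the count was 4 without DMSO replicate 1 and 1 without replicate 2. For compound 5 it was 7 without either DMSO library and 5 without compound 5 replicate 1. For compound 6 it was 0 without either DMSO library, compound 5 replicate 2 or compound 6 replicate 2, 1 without compound 5 replicate 1, and 5 without compound 6 replicate 1.

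**Figure D4:**
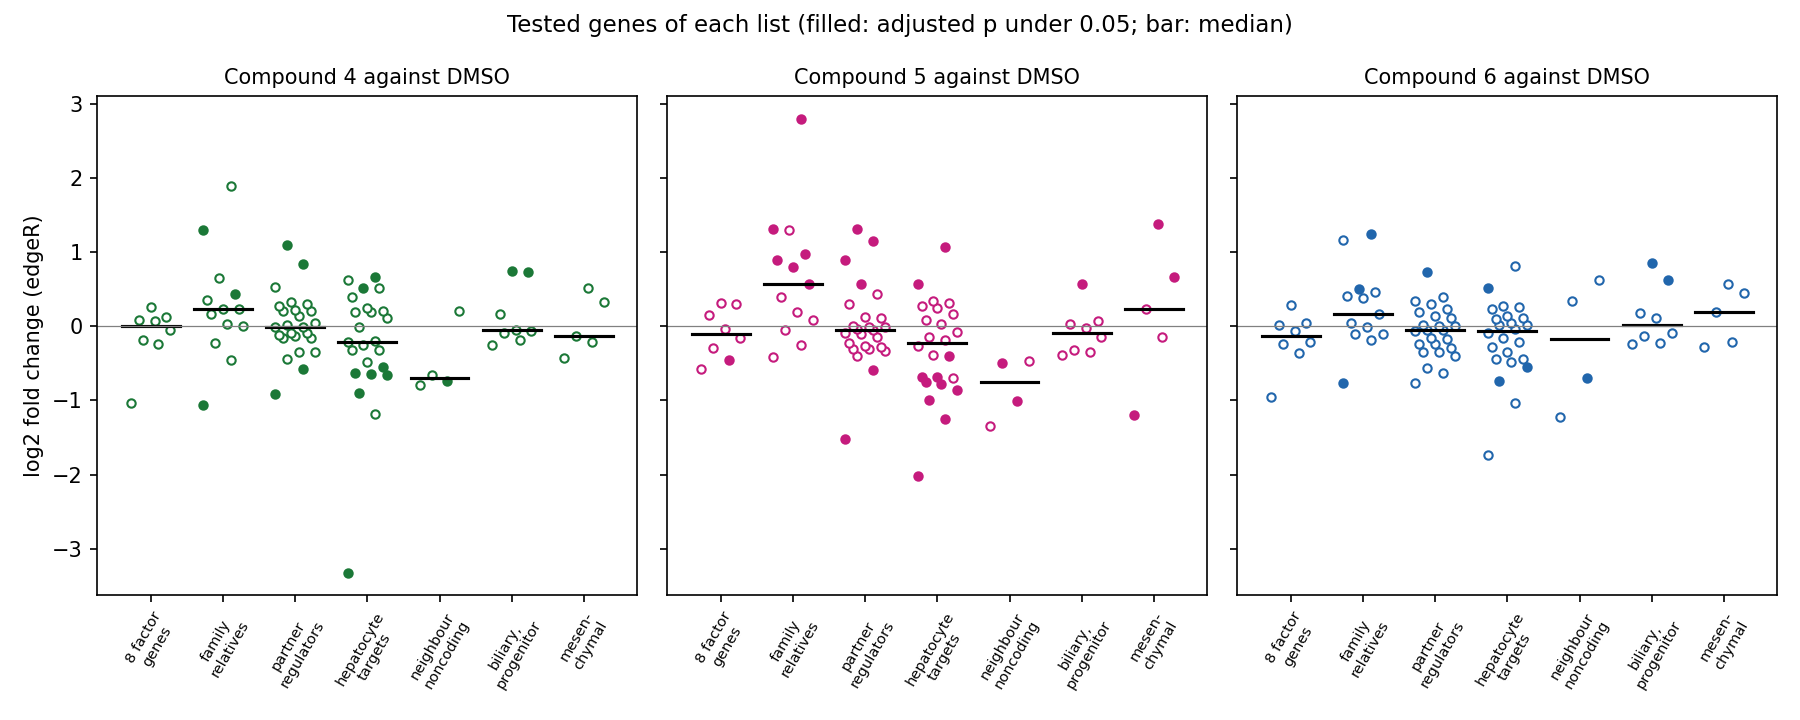
Each point is a tested gene of a list (horizontal axis) with its edgeR log2 fold change against DMSO (vertical axis), filled at an adjusted p under 0.05, and bars are list medians. With compound 5 the family relatives have a median of 0.57 with 6 filled points above 0, and the hepatocyte targets have a median of -0.22 with 9 filled points below 0.

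MTTP, which loads lipid onto apolipoprotein B and is a classical target of HNF4A, fell from 155 and 140 CPM (DMSO) to 78.6 and 78.6 CPM (compound 4, -0.91, edgeR adjusted p = 0.00212) and 58.6 and 65.4 CPM with compound 5 (-1.25, adjusted p = 2.16e-04). It was at 122 and 94.5 CPM with compound 6 (-0.44, adjusted p = 0.0832). APOA1, the main protein of high-density lipoprotein, measured 3150 and 2753 CPM in DMSO and between 1510 and 2154 CPM in the treated libraries. Its log2 fold change with compound 6 was -0.74 (edgeR adjusted p = 0.0375), a call lost with the replicate block (0.0576) and without either DMSO library, either compound 5 library or compound 6 replicate 2 (0.0553 to 0.366). APOA2 rose with compound 4 (0.51, adjusted p = 0.0213), but not with only the groups compared (0.0637), nor without DMSO replicate 2 (0.203) or compound 4 replicate 2 (0.0781). Transferrin (TF) fell with compound 6 (-0.55, adjusted p = 0.0359), and this call was lost with the replicate block (0.0547), under the GC and length correction (0.0586, and 0.0775 with the block) and without the same 5 libraries as for APOA1 (0.0529 to 0.365).

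ASS1 of the urea cycle rose from 72.1 and 71.2 CPM (DMSO) to 107 and 120.5 CPM (compound 4, 0.67, edgeR adjusted p = 0.00377, and 0.0576 without DMSO replicate 2), and 101 and 112 CPM with compound 5 (0.57, adjusted p = 0.00387). With compound 6 it was at 98.7 and 106.5 CPM (0.52, adjusted p = 0.0286), a call lost without either DMSO library, compound 5 replicate 2 or compound 6 replicate 2 (0.0509 to 0.248). CYP7A1, the rate-limiting enzyme of bile acid synthesis and a target of NR5A2 and HNF4A, was at 14 and 25 counts (DMSO), 2 and 2 counts (compound 4), 3 and 7 counts (compound 5) and 6 and 5 counts (compound 6). It was called lower with compounds 4 (edgeR adjusted p = 0.00797, and 0.087 without DMSO replicate 2) and 5 (adjusted p = 0.0185, and 0.125 or 0.133 without compound 5 replicate 1 or DMSO replicate 2), at counts too low to give a fold. TAT, of tyrosine breakdown, was called higher with compound 5 (1.06, adjusted p = 0.0418) at 42 and 49 counts against 19 and 22 in DMSO, but not by DESeq2 (0.126), nor under upper-quartile scaling (0.0545) or library size alone (0.0588), nor without any DMSO or compound 5 library (0.123 to 0.146). Albumin was not called, with log2 fold changes of -0.32, -0.39 and -0.29 for compounds 4, 5 and 6 (edgeR adjusted p = 0.163, 0.0557 and 0.274). Its treated libraries all lay below both DMSO libraries. The other targets called lower, named after their values were seen, were AFP, CPS1, APOA1 and TF with compounds 4 and 5, and APOM, SCARB1 and F7 with compound 5. The CPS1 call with compound 4 was lost by DESeq2 (adjusted p = 0.103), with the replicate block (0.0628), with only the groups compared (0.0781) and without any library but compound 4 replicate 1 (0.0564 to 0.361), and with compound 5 without DMSO replicate 2 or compound 5 replicate 1 (0.131 and 0.122). The APOA1 call was lost with compound 4 without either DMSO library or compound 4 replicate 1 (0.0987 to 0.169), and with compound 5 without DMSO replicate 1 or compound 5 replicate 1 (0.0634 and 0.0771). The TF call was lost with compound 4 under the GC and length correction (0.138, and 0.153 with the block) and without either DMSO library or compound 4 replicate 1 (0.0555 to 0.0915), and with compound 5 without any DMSO or compound 5 library (0.0634 to 0.225). AFP was not called with compound 4 without either DMSO library (0.0551 and 0.0626), nor F7 with compound 5 without DMSO replicate 1 or either compound 5 library (0.0558 to 0.0689).

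**Figure D5:**
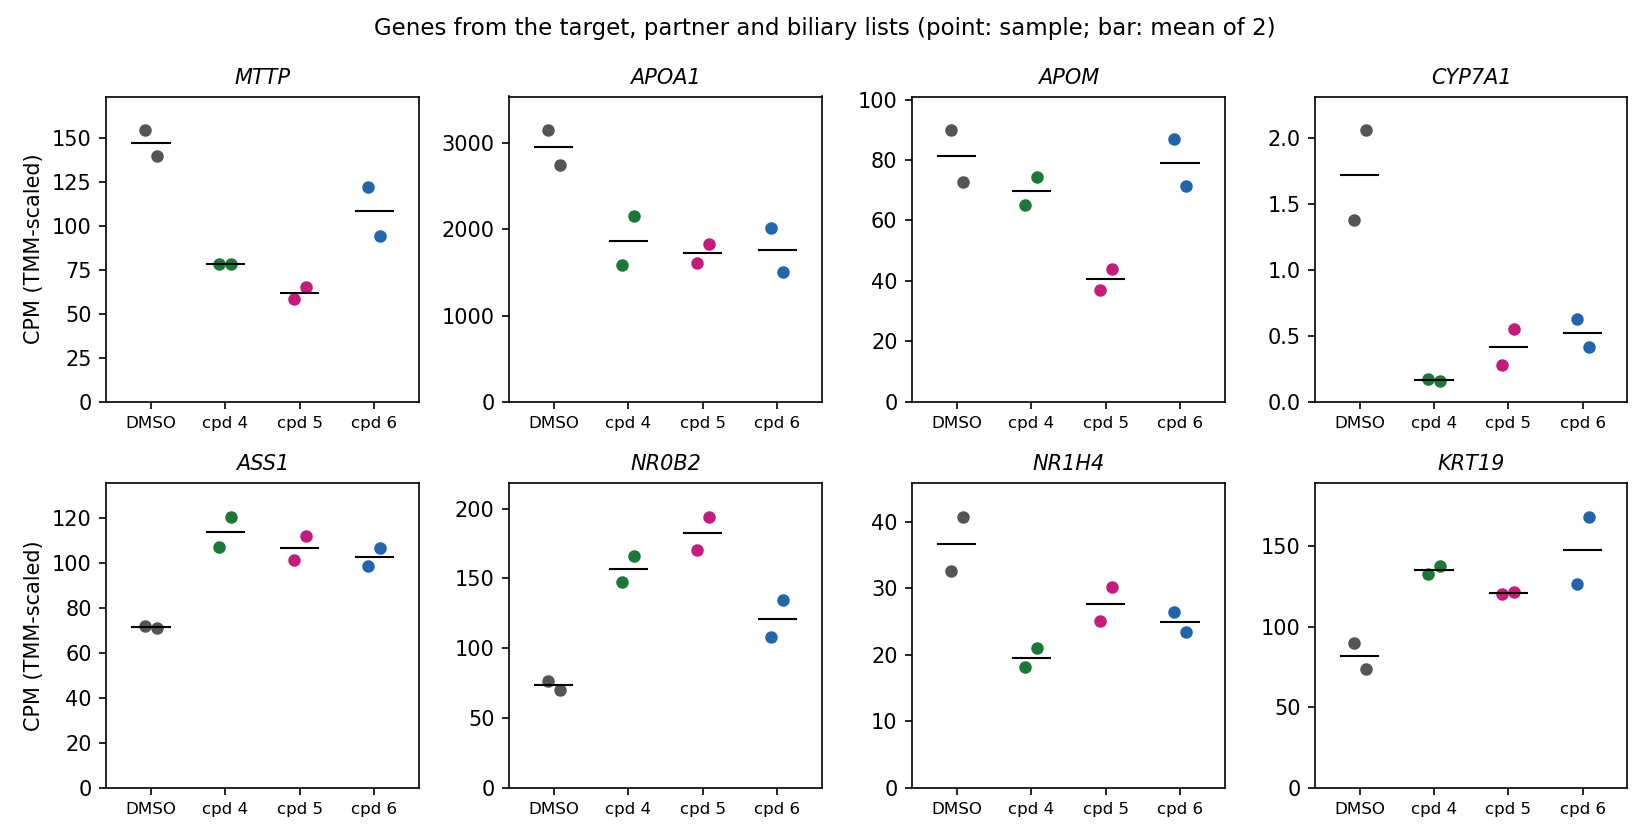
Panels show 8 genes of the target, partner and biliary lists with CPM from 0 on separate vertical axes, points for libraries and bars for means of 2. MTTP, APOA1 and CYP7A1 lie below DMSO in all 6 treated libraries, and ASS1, NR0B2 and KRT19 lie above it in all 6.

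Of the 4 noncoding genes beside members, LINC00261, whose start is 6813 bases from that of FOXA2 on the same strand, fell with each compound. It measured 57.9 and 56.55 CPM (DMSO), 36.1 and 32.8 CPM (compound 4), 43.1 and 37.9 CPM (compound 5) and 40.7 and 30.1 CPM (compound 6). All treated libraries lay below DMSO, including those of compound 5, in which FOXA2 overlapped DMSO. The log2 fold changes were -0.73 (SE 0.15, edgeR adjusted p = 0.00968), -0.50 (SE 0.14, adjusted p = 0.0266) and -0.70 (SE 0.15, adjusted p = 0.0278). The calls were lost without either DMSO library with each compound, without either compound 5 library for compound 5, and without compound 6 replicate 2 for compound 6 (0.0617 to 0.29). In GENCODE 29, 86.2% of its 31-base words also occur in other genes, AL121722.1 among them, which overlaps both genes.

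Markers of neighbouring identities were counted beside these results. Of 10 biliary and progenitor markers, 8 were tested, and 2, 1 and 2 rose with compounds 4, 5 and 6 while 0 fell (edgeR; 0, 1 and 0 were lower at an unadjusted p under 0.05), where 6.5%, 13.9% and 2.8% of all tested genes rose. KRT19, at 90.0 and 74.0 CPM in DMSO, rose with each compound (0.72, 0.56 and 0.85, edgeR adjusted p = 0.00967, 0.0154 and 0.0122), and SPP1, the secreted protein osteopontin, rose with compounds 4 (0.74, adjusted p = 0.0121) and 6 (0.63, adjusted p = 0.0494). SOX9 and EPCAM were not called, and the summed CPM of the 4 biliary markers ranged from 415 to 443 in DMSO and from 446 to 475 with the compounds. All of these calls were lost without DMSO replicate 2 (adjusted p 0.108 to 0.298), the KRT19 call also without either compound 5 library for compound 5 (0.0707 and 0.0721) and without compound 6 replicate 2 for compound 6 (0.119), and the SPP1 call with compound 6 without either compound 5 or either compound 6 library (0.0713 to 0.191) and with RLE, upper-quartile or library-size scaling (0.0501 to 0.0553). Without DMSO replicate 2 the SPP1 log2 fold change with compound 6 was 0.395. The 6 hepatocyte markers summed to 32257 and 33215 CPM in DMSO and to between 24361 and 30688 CPM in the treated libraries. The part of these markers in the results on the 8 genes was not tested.

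Of 10 mesenchymal markers 5 were tested. With compound 5 the repressors SNAI1 (1.38, edgeR adjusted p = 0.00387) and ZEB1 (0.66, adjusted p = 0.0107) rose and the smooth muscle actin gene ACTA2 fell (-1.20, adjusted p = 8.37e-04). SNAI1 was at 2.56 and 2.55 CPM (DMSO) and 6.05 and 7.22 CPM (compound 5). The ZEB1 call was lost without either DMSO library or compound 5 replicate 1 (0.0564 to 0.0659). With compounds 4 and 6 edgeR and DESeq2 called 0 of the 5, with 1 (ACTA2, lower) and 0 at an unadjusted p under 0.05 in edgeR. Counting both directions, 0%, 60% and 0% of the 5 were called with compounds 4, 5 and 6, against 11.9%, 28.1% and 4.4% of all tested genes. SNAI2 and TWIST1 were at 0 in every library.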

How the data were processed

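RNA from HepG2 cells overexpressing CYP3A4 was sequenced in 8 samples, 2 for each of DMSO and compounds 4, 5 and 6. The authors quantified reads with Salmon 1.5.0 on GENCODE 38 (GRCh38), after FastQC 0.12.0, and deposited estimated counts per gene as whole numbers, made with tximeta. The submitters' notes also name DESeq2 1.38.3. Whether strand was used in counting was not given in the sources used here.

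Here the 13404 genes kept by edgeR's filterByExpr were scaled by TMM (factors 0.958 to 1.04) and tested with edgeR 4.0.16 (quasi-likelihood F-test, all 8 samples, Benjamini-Hochberg adjustment over all tested genes, cutoff 0.05) in R 4.3.3. The SE of a log2 fold change was its size divided by the square root of F. The scripts were tested on simulated data. Genes were matched by Ensembl identifier and coordinates and lengths came from GENCODE 29, and promoter windows from RefSeq. The members and lists were chosen with earlier results of these data known. Named genes were all 8 members, in each list and per compound the 2 highest and 2 lowest called genes, the 3 genes closest in profile to a called member, and the cell type markers and CYP3A4 as checks. Others are list genes given without a call, genes that overlap a named gene, or genes said in the text to have been named after their values were seen.

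Alternatives were RLE, upper-quartile or library-size scaling, DESeq2 1.42.0, no low-count filter, a filter of at least 10 counts in each library, a block for the replicate number, only the groups compared, a cutoff of 0.01, and each library left out in turn. A loess correction for GC content and exon length, with and without the block, was added after seeing the data. The labels number replicates by day. Same-numbered samples correlated between -0.083 and 0.16 in their deviations from group means. The blocked value is printed where it changed a call.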

Additional observations from a re-analysis of the deposited data

How the results depend on the processing

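Of the 8 factor genes, the main counts called were 0, 1 and 0 with compounds 4, 5 and 6, 1 in compound 5 against compound 4 and 0 in the other pairs. With compound 5 the count was 0 under RLE scaling, the replicate block and a cutoff of 0.01, 2 under upper-quartile scaling and library size alone (FOXA1 added), 4 with only the groups compared (FOXA1, FOXA3 and PROX1 added), and 2 under the GC and length correction with or without the block (FOXA3 added). With compound 4 it was 1 without the low-count filter (ONECUT1) and 1 under the GC and length correction with or without the block (FOXA2). With compound 6 it was 1 without the filter (ONECUT1). In compound 5 against compound 4 it was 2 without the filter (PROX1 added), 0 with only the groups compared and 0 at the cutoff of 0.01, while the GC and length correction called FOXA2 in place of CEBPA, and in compound 5 against compound 6 it was 1 under the GC and length correction with or without the block (FOXA3). With 1 library left out in turn, the counts ranged from 0 to 0, 0 to 2 and 0 to 1 for compounds 4, 5 and 6, and from 0 to 2 for compound 5 against compound 4. Calls over all genes moved too. With compound 5 they were 3763 of 13404 in the main fit, 3799 under RLE scaling and 3676 with the block. Upper-quartile scaling gave 3964, library size alone 4076, and only the groups compared 5127 of 12966. At the cutoff of 0.01 there were 1809. The GC and length correction gave 4232 of 13325 (compound 5) and 1968 (compound 4, against 1598). Without the filter they were 2265 (compound 4) and 1441 (compound 6, against 590), of 22717. The cause of the changes in the 8 genes was not tested.

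Directions turned for 7 values that had not passed the test. HNF4A with compound 6 was -0.00675 by library size alone, -0.0558 under the GC and length correction and -0.0557 with the block added, and ranged from -0.0377 to 0.111 over the fits without 1 library. FOXA2 with compound 5 was 0.0743 and 0.0733 under these corrections and ranged from -0.14 to 0.0738. CEBPA with compound 4 was -0.0463 and -0.0478, ranging from -0.0995 to 0.327. PROX1 with compound 4 was 0.0253 and 0.012, ranging from -0.42 to 0.253, and with compound 6 it ranged from -0.048 to 0.133. FOXA3 with compound 6 ranged from -0.189 to 0.0861 and NR5A2 with compound 4 from -0.115 to 0.252. The upper-quartile and library-size scalings took the share of higher calls over all genes with compound 5 from 49.3% to 36.6% and 33.3%, and DESeq2 took it to 59.2%.

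For the lists, a cutoff of 0.01 gave 1 and 0 family relatives with compounds 4 and 6, 2, 3 and 0 partners with compounds 4, 5 and 6, 4, 7 and 0 targets, 0 and 0 noncoding neighbours with compounds 5 and 6, and 1, 0 and 0 biliary markers. Without the low-count filter there were 6 relatives with compound 4, 4 partners and 6 targets with compound 6, and 1 mesenchymal marker each with compounds 4 and 6. With only the groups compared there were 3 partners and 1 mesenchymal marker with compound 6. The GC and length correction gave 3 partners with compound 6, and 3 with the block. The replicate block alone gave 1 target with compound 6, against 3. It changed no other list's count by over 1.5 times and no other call than those given with their blocked values or named here (CPS1 with compound 4). DESeq2 gave 1 noncoding neighbour with compound 5. Biliary markers numbered 2 under upper-quartile scaling and library size alone with compound 5, and 1 under RLE, upper-quartile and library-size scaling with compound 6.

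Without 1 library, for compounds 4, 5 and 6 in turn, relatives ranged from 1 to 5, 4 to 8 and 0 to 3, partners from 1 to 5, 3 to 8 and 0 to 3, targets from 1 to 7, 5 to 14 and 0 to 5, noncoding neighbours from 0 to 1, 0 to 2 and 0 to 1, biliary markers from 0 to 2, 0 to 1 and 0 to 2, and mesenchymal markers from 0 to 1, 2 to 3 and 0 to 1. Without DMSO replicate 2, compound 6 had 1 call over all genes, and without its own replicate 2 it had 49, against 590. Of the calls of CEBPA and of list genes, more were lost without either DMSO library than without any 1 treated library. Each DMSO library enters every comparison with DMSO, while a treated library enters directly only those of its own compound. The larger losses are thus part of the design. ONECUT1 was at 15 to 56 counts per library and NR5A2 at 15 to 21.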
